A study of Mus musculus with 231 samples.

Results

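The miR-181 family was followed in peripheral blood mononuclear cells (PBMC) of mice by microRNA sequencing. Its 6 members here were the mature miRNAs mmu-miR-181a-5p, mmu-miR-181b-5p, mmu-miR-181c-5p, mmu-miR-181d-5p, mmu-miR-181a-1-3p and mmu-miR-181a-2-3p. They were chosen by name, and all 6 names were found among the 1863 miRNAs of the training raw counts, the 1895 of the training CPM table (reads scaled to library size) and the 1817 of the validation CPM table.

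The mice were C57BL/6 mice in which the fusion gene Cbfb-MYH11 (CM), the fusion that inv(16) creates in acute myeloid leukemia (AML) of humans, can be switched on. Switching rests on Mx1-Cre, a recombinase whose promoter responds to interferon in many tissues and is not limited to blood cells. Every mouse, Ctrl included, was given 7 doses of poly(I:C) of 14 mg/kg from an age of 6 to 8 weeks, so that the arms differed in genotype and not in treatment. All CM mice carried the genotype label CHW. In the training cohort 4 Ctrl mice were labelled CW, 2 HW and 1 WT, and in the validation cohort 3 were labelled CW, 2 HW and 1 WT. What these codes stand for is not stated. The paper's methods name littermates with the fusion allele, listed without Mx1-Cre, among the controls. Which Ctrl mice here held a silent copy of this allele is not clear. The training cohort held 7 CM mice with 53 libraries and 7 Ctrl mice with 76 libraries, from before induction (month 0) to month 10, with 1792809 to 7958411 raw counts a library. Of these mice, 4 of the CM and 2 of the Ctrl were female. The validation cohort held 10 CM mice with 60 libraries and 6 Ctrl mice with 42 libraries by their labels, whereas the series text gives 9 and 7 mice, so the arms here follow the labels.

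A miRNA guides the silencing complex to messenger RNAs that pair with its seed, the bases near its 5′ end. The hairpin precursor gives a 5p and a 3p strand, of which one is usually kept and the other largely degraded. The miR-181 family is known in blood for roles in lymphocyte development, where mmu-miR-181a-5p sets the signalling threshold of the T cell receptor, and its level has been studied as a marker in AML.

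The mature sequences are shown because the seed unites the 5p members, while the few bases that differ between them decide which name a read receives. They were taken from RefSeq (GRCm38.p6), which held all 6 members, and the seed (bases 2 to 8) is in capitals.
mmu-miR-181a-5p: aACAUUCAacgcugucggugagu
mmu-miR-181b-5p: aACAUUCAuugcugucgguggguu
mmu-miR-181c-5p: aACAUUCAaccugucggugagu
mmu-miR-181d-5p: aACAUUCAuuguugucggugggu
mmu-miR-181a-1-3p: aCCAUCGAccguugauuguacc
mmu-miR-181a-2-3p: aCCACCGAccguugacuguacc

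The seed ACAUUCA was shared by the 4 5p members and by no other of 1679 mature names in the RefSeq table. Counted from 1 at the 5′ end, mmu-miR-181b-5p differed from mmu-miR-181a-5p over the 23 bases of the latter by A9U, C10U and A21G (mmu-miR-181a-5p first). mmu-miR-181b-5p was longer, with 24 bases. Over its 23 bases, mmu-miR-181d-5p differed from mmu-miR-181b-5p by C12U alone (mmu-miR-181b-5p first). mmu-miR-181c-5p was 22 bases long against 23 for mmu-miR-181a-5p, and the sequences became identical when base 11 of mmu-miR-181a-5p was left out. The 3p members differed by U5C and U16C (mmu-miR-181a-1-3p first), and U5C lies inside the seed. The seed CCAUCGA of mmu-miR-181a-1-3p was shared with mmu-miR-181c-3p.

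The 6 precursors lie in 3 pairs. Mir181a-1 (chr1:137966455-137966541) and Mir181b-1 (chr1:137966639-137966718) lie on the plus strand with 97 bases between them. Mir181a-2 (chr2:38852735-38852810) and Mir181b-2 (chr2:38853830-38853918) lie on the plus strand with 1019 bases between them. Mir181d (chr8:84178716-84178787) and Mir181c (chr8:84178873-84178961) lie on the minus strand with 85 bases between them. Mature mmu-miR-181a-5p and mmu-miR-181b-5p are therefore each made from 2 precursors of identical mature sequence, whereas mmu-miR-181c-5p, mmu-miR-181d-5p and the 3p members each have 1.

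The training cohort was deposited both as raw counts and as CPM, and the tables gave different pictures of the members with 2 precursors. The deposited CPM are whole multiples of the worth of 1 read in each library (100% of values within a tolerance of 0.02 reads), so the reads behind them could be recovered. For mmu-miR-181a-5p the raw counts ran from 364 to 48028 and the recovered reads from 4430 to 65937, and the raw count was below 0.5 times the recovered reads in 71 training libraries. For mmu-miR-181b-5p this was so in 57 training libraries. Across libraries, log2 raw counts and log2 recovered reads had a Pearson r of 0.38 for mmu-miR-181a-5p and 0.55 for mmu-miR-181b-5p, against 0.996 for mmu-miR-181c-5p and 0.9997 for mmu-miR-181d-5p, whose raw counts were at least 0.5 times the recovered reads in every library. These r are descriptions over libraries of the same 14 mice. The low libraries of mmu-miR-181a-5p were 28 of 53 CM and 43 of 76 Ctrl libraries, so they occurred in both arms, but unevenly over months: at month 1 they were 4 of 7 CM and 2 of 7 Ctrl libraries, and at month 2 3 of 6 and 6 of 7.

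**Figure D1:**
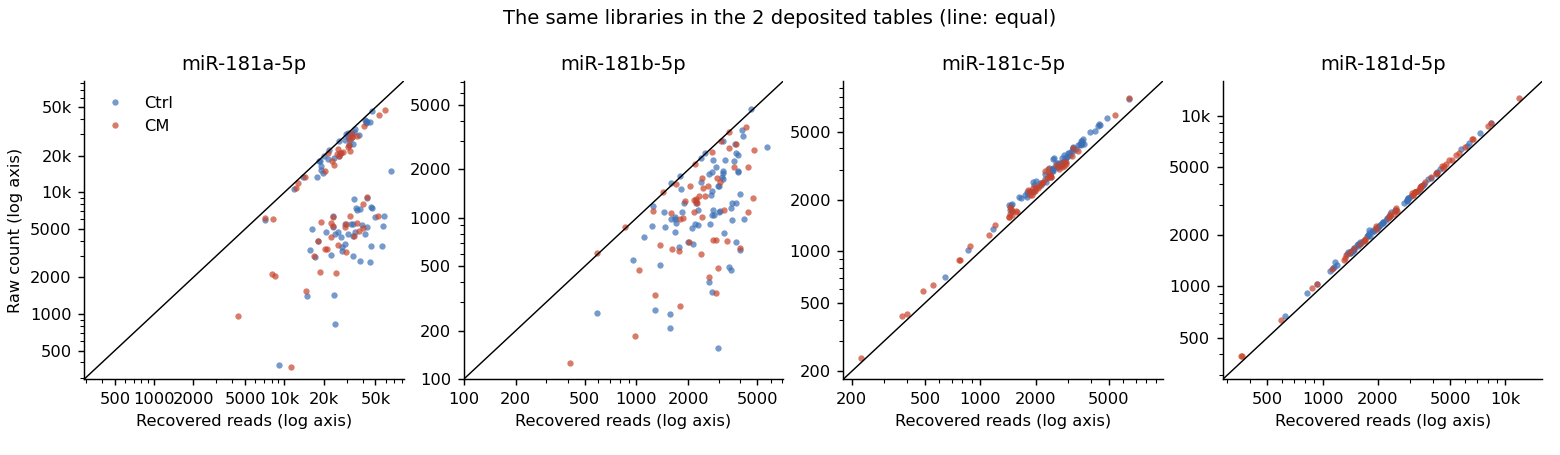
Raw count against reads recovered from the deposited CPM for the 4 5p members, 1 point a training library, Ctrl in blue and CM in red, both axes logarithmic, with the line of equality. For mmu-miR-181a-5p and mmu-miR-181b-5p many libraries of both arms lie far below the line, whereas mmu-miR-181c-5p and mmu-miR-181d-5p follow it.

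The same pattern held beyond the family. Among miRNAs that RefSeq places at 1 locus, the standard deviation over libraries of the log2 difference between the tables was above 1 for 1 of 230, and among those at 2 or more loci for 15 of 20. The 3p members were also handled differently. The deposited CPM of mmu-miR-181a-1-3p held a median of 95.9% of the summed raw counts of both 3p members (89.4% to 100%), while mmu-miR-181a-2-3p was listed at 0 in all but 6 training libraries. In the CPM table mmu-miR-181a-1-3p is therefore referred to as pooled 3p. Which table is closer to the molecules in the cells cannot be told from them. The raw counts gave the main test, and for mmu-miR-181a-5p, mmu-miR-181b-5p and the 3p members values from the recovered reads are set beside them for the main comparisons.

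In the deposited CPM, mmu-miR-181a-5p was the highest of the family in every library group. Over all training libraries its mean was 7037 ± 2144 CPM (SD), followed by mmu-miR-181d-5p at 667 ± 337, mmu-miR-181b-5p at 618 ± 150, mmu-miR-181c-5p at 586 ± 192 and pooled 3p at 48.7 ± 15.4 CPM. The order of the 3 5p members behind mmu-miR-181a-5p lay within their spread. As a share of the summed 5p reads, mmu-miR-181a-5p made up 56.8% to 85.6% in CM libraries (median 78.1%) and 66.1% to 87% in Ctrl libraries (median 81.1%). In the raw counts, where the 3p members are separate, mmu-miR-181a-1-3p had 34.6 ± 12 CPM and mmu-miR-181a-2-3p 12.4 ± 4.88 CPM. All 6 had reads in every library of the raw counts.

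**Figure D2:**
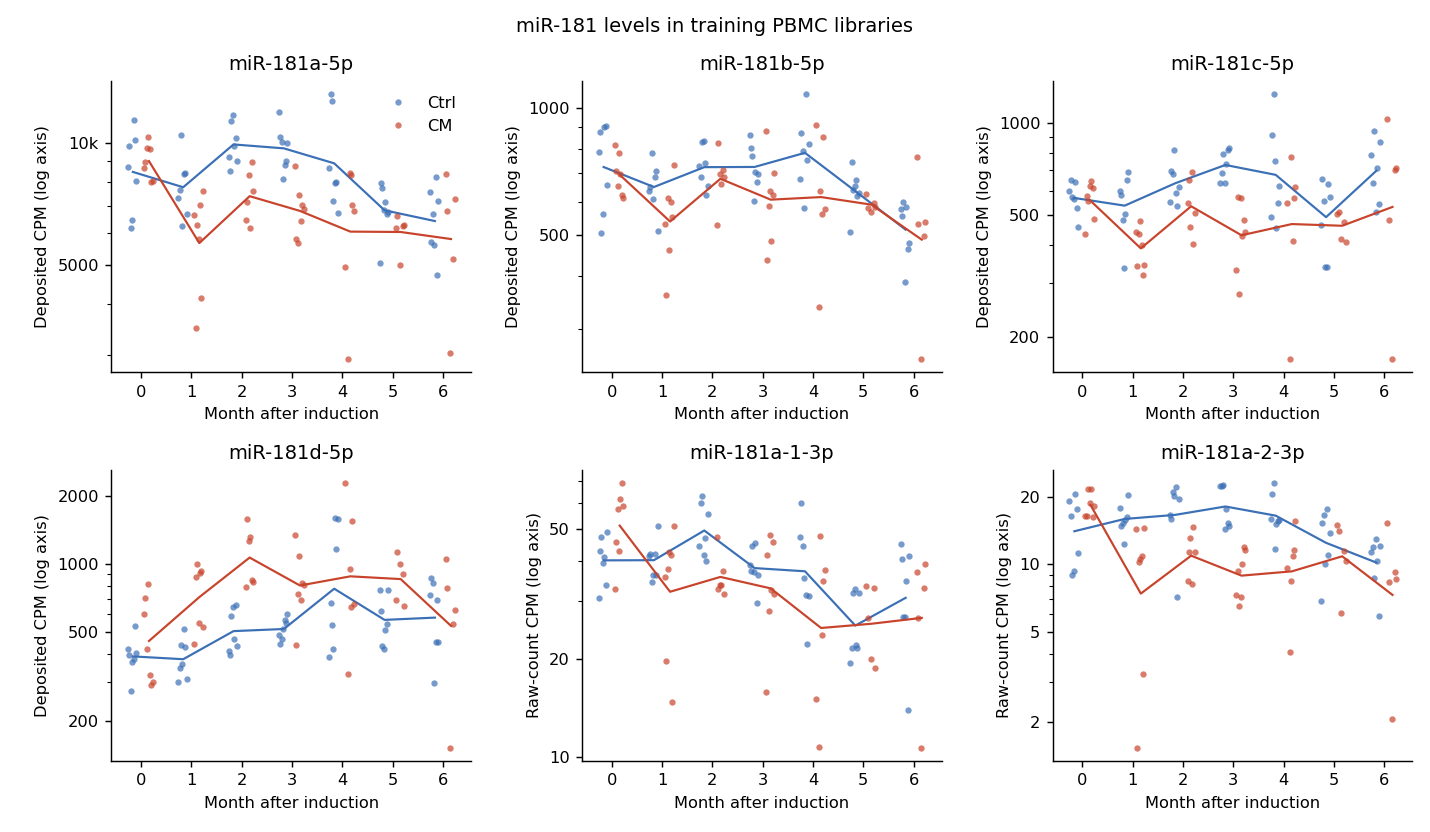
Level of each member by month (x axis, month 0 before induction) on a logarithmic axis in CPM, deposited CPM for the 5p members and CPM from raw counts for the 3p members. Each point is a mouse, Ctrl in blue and CM in red, and lines join the geometric means. mmu-miR-181d-5p lies higher and mmu-miR-181c-5p lower in CM at months 1 to 3.

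Mice 3334 (labelled CM) and 3335 (labelled Ctrl) stood apart from their labels at months 5 and 6 in miR-126a-3p, the miRNA the study centres on. It was at 259 and 561 deposited CPM in mouse 3335, against 95.4 to 242 in the 12 libraries of the other Ctrl mice, and at 144.5 and 169.2 CPM in mouse 3334. Each result was therefore also computed without both mice, and is given in that form where this changed it. The running numbers in the sample titles of both mice also break between months 5 and 6, where each goes on in the series of the other.

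Before induction no difference between the arms was detected. None of the 6 members passed the test at month 0 (edgeR quasi-likelihood test with Benjamini-Hochberg adjustment, none of the 6 at an unadjusted p under 0.05 and none called by DESeq2), where 0.209% of 478 tested miRNAs were called. The largest difference was that of mmu-miR-181d-5p, with a log2 fold change of 0.38 ± 0.23 (SE, adjusted p = 0.461).

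mmu-miR-181d-5p was higher in CM at months 1, 2 and 3, and mmu-miR-181c-5p, from a precursor 85 bases away, was lower at months 1 and 3. In bulk PBMC, fewer cells of a type and less of a miRNA per cell cannot be told apart. mmu-miR-181d-5p had 442 to 997 deposited CPM in CM mice at month 1 (median 876), against 300 to 512 in Ctrl mice (median 359). At month 2 it had 795 to 1588 CPM in CM mice (median 1057), against 393 to 660 in Ctrl mice (median 466.4). At month 3 it had 437 to 1346 CPM (median 803) in CM mice, against 443 to 600 (median 515) in Ctrl mice. In these CPM every CM mouse exceeded every Ctrl mouse at month 2, and 6 of 7 did so at months 1 and 3. The log2 fold change in the raw counts was 0.96 ± 0.20 at month 1 (edgeR, adjusted p = 0.00531), 1.00 ± 0.22 the month after (adjusted p = 0.0107), and 0.78 ± 0.21 at month 3 (adjusted p = 0.0166), and each of these calls held when any 1 mouse was left out. The recovered reads gave 0.99, 1.00 and 0.79. When all training libraries shared a single fit the value for month 3 was no longer called (0.71, adjusted p = 0.134). With the G number of the libraries, a label that is not explained, added to that fit, none of the 3 was called in the raw counts (0.87, 0.90 and 0.79, with adjusted p = 0.0514, 0.103 and 0.152). In the recovered reads the same fit called 1 member higher in CM at month 1 and at month 2, and none higher at month 3. Of all miRNAs tested, 27.5%, 13.5% and 22% were called at the same months in the raw counts (of 472, 481 and 455), and 31.4%, 22.2% and 27.8% in the recovered reads.

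mmu-miR-181c-5p moved the other way. At month 1 it had 318 to 478 deposited CPM in CM mice (median 399), against 335 to 693 in Ctrl mice (median 584). At month 3 it had 276 to 575 CPM in CM mice (median 440), against 637 to 830 in Ctrl mice (median 737), and no CM mouse reached the lowest Ctrl mouse. The log2 fold change in the raw counts was -0.70 ± 0.17 at month 3 (adjusted p = 0.0115), a call that held when any 1 mouse was left out. A month earlier it was -0.38 ± 0.17, without a call (adjusted p = 0.141). For month 1 it was -0.53 ± 0.18 (adjusted p = 0.0406). That call was lost without mice 3334 and 3335 together, and without any one of mice 3335, 3336, 3338, 3339, 3346, 3349, 3350, 3357, 3368 and 3370, with values from -0.53 to -0.43 and an adjusted p of up to 0.103, and was also lost by DESeq2 (-0.47, adjusted p = 0.0522), without the filter on low counts (-0.46, adjusted p = 0.223) and when all training libraries shared a single fit (-0.53, adjusted p = 0.129).

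mmu-miR-181a-5p, by far the most abundant member, depended on the table. In the deposited CPM, CM mice had 6164 to 8972 CPM at month 2 (median 7386) against 8506 to 11704 in Ctrl mice (median 9831), and 5682 to 8792 CPM at month 3 (median 6887) against 8152 to 11936 (median 9996). At these months 5 of 6 and 6 of 7 CM mice lay below every Ctrl mouse. The recovered reads gave a log2 fold change of -0.51 ± 0.15 for month 2 (adjusted p = 0.0281) and of -0.43 ± 0.13 for month 3 (adjusted p = 0.0218). The first call was lost without any one of mice 3336, 3338 and 3357 (adjusted p of up to 0.0583) and the second without any one of 10 of the 14 mice, namely 3335, 3336, 3338, 3339, 3340, 3342, 3346, 3349, 3350 and 3357, with a value as small as -0.30 and an adjusted p of up to 0.129. The raw counts had the opposite sign and wide errors, with 0.72 ± 0.70 for month 2 (adjusted p = 0.505) and 0.40 ± 0.60 for month 3 (adjusted p = 0.704). Without mouse 3342 the raw value for month 2 was 1.81 and was called as higher in CM (adjusted p = 0.0425). With all mice, at month 1 both tables were lower in CM without a call (-1.33 ± 0.58, adjusted p = 0.103, and -0.43 ± 0.17, adjusted p = 0.0625), and the raw counts passed without mouse 3357 (-1.71, adjusted p = 0.0483).

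With all mice, mmu-miR-181b-5p was not called at any month in either table. In the raw counts of month 1 (-0.77 ± 0.30, adjusted p = 0.0648) it was called without mouse 3335 (-0.88, adjusted p = 0.0477). Its log2 fold change at months 1 to 3 lay between -0.77 and 0.20 in the raw counts and between -0.25 and -0.15 in the recovered reads.

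Of the 3p members, mmu-miR-181a-2-3p, the strand from the chromosome 2 precursor, was lower in CM. At month 3 it had 6.52 to 12 CPM in CM mice (median 9.36) against 14.3 to 22.5 in Ctrl mice (median 17.5), with no overlap of the arms. Its log2 fold change was -0.94 ± 0.19 (adjusted p = 0.00363) and held without any 1 mouse and with the G number (-1.04, adjusted p = 0.0218). At months 1 and 2 it was -0.81 ± 0.37 (adjusted p = 0.121) and -0.67 ± 0.24 (adjusted p = 0.0736). mmu-miR-181a-1-3p was at -0.25 ± 0.24, -0.48 ± 0.18 and -0.08 ± 0.21 at months 1 to 3 and was not called by edgeR with all mice. At month 2 DESeq2 called both 3p members lower (-0.65, adjusted p = 0.0453, for mmu-miR-181a-2-3p and -0.47, adjusted p = 0.0326, for mmu-miR-181a-1-3p). edgeR called both without mouse 3349 (-0.79, adjusted p = 0.00489, and -0.53, adjusted p = 0.027), and mmu-miR-181a-1-3p without mouse 3336 (-0.56, adjusted p = 0.0329). Pooled 3p in the recovered reads gave -0.40 ± 0.23 for month 1 (adjusted p = 0.2) without a call, likewise -0.29 ± 0.17 for month 3 (adjusted p = 0.215), and was called at month 2 (-0.55 ± 0.15, adjusted p = 0.0236), a call lost without mouse 3341 (-0.54, adjusted p = 0.0578) or 3357 (-0.53, adjusted p = 0.0551).

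**Figure D3:**
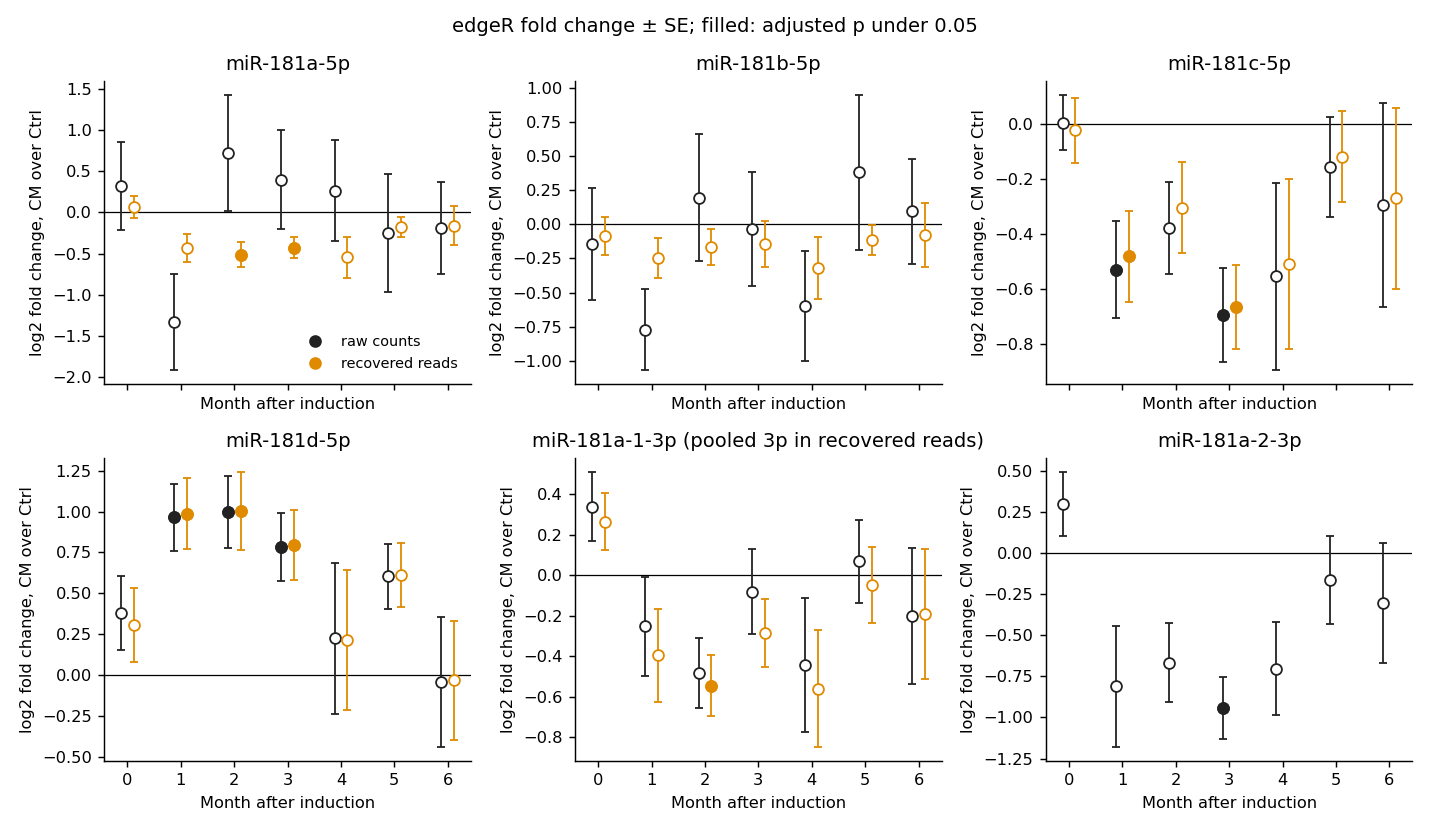
Log2 fold change of CM over Ctrl (y axis) at months 0 to 6 (x axis) for each member, with SE bars from edgeR, from raw counts in black and recovered reads in orange; filled points have an adjusted p under 0.05. mmu-miR-181d-5p is above 0 and mmu-miR-181c-5p below 0 at months 1 to 3 in both tables, whereas the tables part for mmu-miR-181a-5p.

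At months 4, 5 and 6 no member passed the test in either table, nor by DESeq2, which called 22, 24 and 0 miRNAs. The background was 0.837%, 0% and 0% of tested miRNAs in the raw counts, with 16.9%, 21.6% and 6.98% at an unadjusted p under 0.05, and 2.11%, 0% and 0% in the recovered reads. CM libraries numbered 6, 5 and 5. At month 4 mmu-miR-181a-2-3p had an unadjusted p under 0.05 (-0.70 ± 0.28, adjusted p = 0.229), and at month 5 mmu-miR-181d-5p (0.60 ± 0.20, adjusted p = 0.143). mmu-miR-181d-5p was called at month 5 when mice 3334 and 3335 were left out (0.76, adjusted p = 0.0365).

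To weigh each mouse once, levels were averaged over months 1 to 4. mmu-miR-181d-5p had geometric means of 701 to 1085 CPM in the 7 CM mice (median 872) and 398 to 703 in the 7 Ctrl mice (median 519) in the raw counts, with a log2 difference of 0.67 ± 0.15 (limma-trend, adjusted p = 0.00291). mmu-miR-181c-5p had 355 to 610 CPM in CM mice (median 488) and 622 to 827 in Ctrl mice (median 702), so the arms did not overlap (-0.59 ± 0.12, adjusted p = 0.00215). mmu-miR-181a-2-3p had 5.28 to 13.1 CPM (median 9.57) and 13.0 to 20.2 (median 17.5), with only a narrow overlap (-0.88 ± 0.17, adjusted p = 0.00169). Beside these 3 calls among 6 members, 30.2% of 600 miRNAs were called. For how many of all miRNAs the arms did not overlap, here or at single months, was not counted. The median difference of the 6 members was -0.40, beside -0.02 over all miRNAs tested, and -0.24 beside -0.03 when months 1 to 6 were averaged. All 3 calls held without any 1 mouse, without mice 3334 and 3335 together and with sex as a covariate.

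In the recovered reads mmu-miR-181a-5p also passed. Its mouse means were 5022 to 7425 CPM in CM mice (median 6806) and 8138 to 11242 in Ctrl mice (median 9032), without overlap (-0.51 ± 0.11, adjusted p = 0.00168, background 35.3%). It held without any 1 mouse, whereas the raw counts gave -0.05 ± 0.31 (adjusted p = 0.923). Pooled 3p was lower as well (-0.50 ± 0.14, adjusted p = 0.00869), while mmu-miR-181a-1-3p alone had -0.40 ± 0.16 in the raw counts (adjusted p = 0.0612) and was called without mouse 3341, 3349 or 3370 (adjusted p of 0.0297 to 0.0481). mmu-miR-181b-5p had -0.26 ± 0.12 (adjusted p = 0.0984), and -0.39 ± 0.19 in the raw counts (adjusted p = 0.119). It was called without mouse 3334 in the former (-0.32, adjusted p = 0.04) and without mouse 3339 in the latter (-0.55, adjusted p = 0.0127).

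The opposite movement of the chromosome 8 pair was clearest in their ratio within a library, which does not depend on library size or scaling. The log2 ratio of mmu-miR-181c-5p to mmu-miR-181d-5p, averaged over months 1 to 4, had a mean of -0.86 ± 0.34 in CM (SD, n = 7 mice) against 0.40 ± 0.36 in Ctrl (n = 7 mice). The CM means were -1.30, -1.18, -1.12, -0.84, -0.64, -0.52 and -0.44 and the Ctrl means -0.18, 0.05, 0.32, 0.48, 0.65, 0.67 and 0.81, so that every CM mouse lay below every Ctrl mouse. The difference was -1.26 (exact two-sided permutation test over mice, p = 0.000583, the smallest this design allows; BH-adjusted p = 0.00233 over 4 ratios), and the recovered reads gave -1.21. It was lower in CM within each of the 7 G numbers, with differences from -0.24 to -2.41.

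By month, the mean ratio in CM fell from 0.35 before induction to -0.83, -0.95 and -0.82 at months 1, 2 and 3, while that of Ctrl mice was 0.63, 0.59, 0.45 and 0.63. In each of the 7 CM mice the mean of months 1 to 4 was below month 0, by 0.18 to 2.28. Of the Ctrl mice 5 of 7 were below, with changes from -1.01 to 0.08. Tests of single months and of this change were chosen after the values were seen. The change differed between arms by -0.98 (exact permutation test, p = 0.0122). The arms differed at months 1, 2, 3 and 5 (exact permutation test, BH-adjusted p = 0.00408, 0.00408, 0.00408 and 0.0265 over 7 months) and did not pass at months 0, 4 and 6, with differences of -0.28, -0.78 and -0.33 (exact permutation test, BH-adjusted p = 0.318, 0.274 and 0.318). At month 4 the ratio spread widely within Ctrl mice. Leaving out mice 3334 and 3335 kept the calls at the same 4 months.

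**Figure D4:**
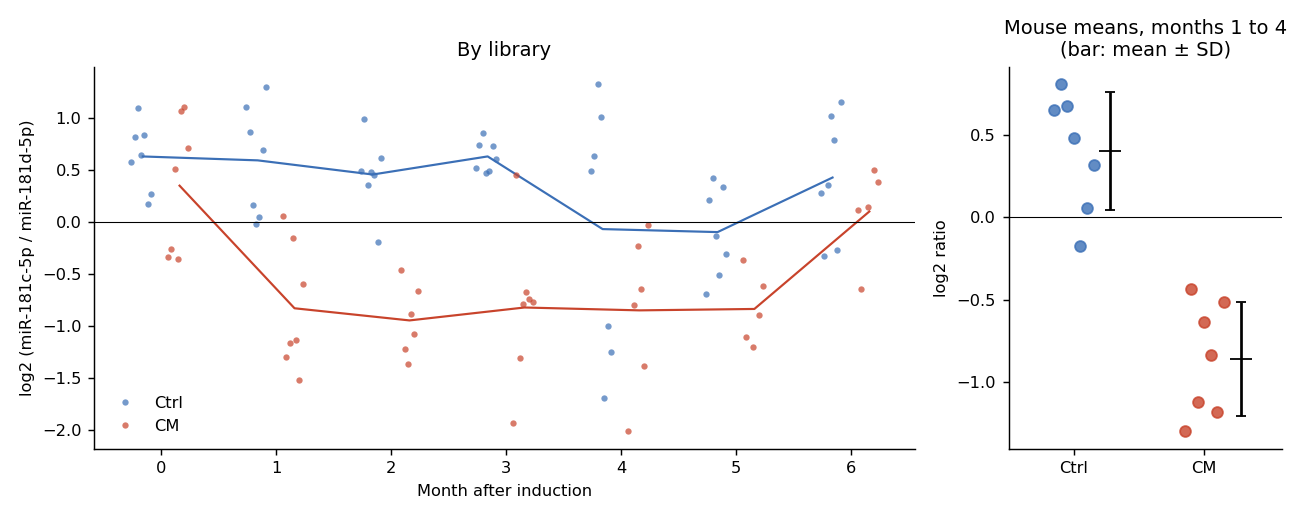
Log2 ratio of mmu-miR-181c-5p to mmu-miR-181d-5p in raw counts. Left, each library by month, with lines joining the means of Ctrl (blue) and CM (red); right, each mouse averaged over months 1 to 4 with mean ± SD. The 7 CM mice lie between -1.30 and -0.44, all below the 7 Ctrl mice.

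The ratio of mmu-miR-181a-1-3p to mmu-miR-181a-2-3p, strands of the precursors on chromosomes 1 and 2, was higher in CM. Its log2 mean was 1.79 ± 0.54 in CM against 1.28 ± 0.09 in Ctrl (n = 7 mice each), and 6 of 7 CM mice lay above every Ctrl mouse (difference of 0.50, BH-adjusted p = 0.0303 by the exact permutation test over mice). The remaining CM mouse, 3334, had 1.01 and lay below every Ctrl mouse. The call was lost without any one of mice 3336, 3338, 3340, 3341, 3346, 3357 and 3368, with values from 0.35 to 0.52 and an adjusted p of up to 0.0606. Without mice 3334 and 3335 together the difference was 0.63 (exact permutation test, BH-adjusted p = 0.00433). With all mice, the ratio was higher in CM within 6 of 7 G numbers, with differences from 0.10 to 1.01, and lower in G number 6, with a difference of -0.23. The log2 ratio of mmu-miR-181a-5p to mmu-miR-181b-5p differed by 0.34 in the raw counts (exact permutation test, BH-adjusted p = 0.340) and by -0.25 in the recovered reads (exact permutation test, BH-adjusted p = 0.0194), so that the tables disagreed in its sign. That of mmu-miR-181a-5p to both 3p members together differed by 0.47 in the raw counts (exact permutation test, BH-adjusted p = 0.242) and by -0.01 in the recovered reads.

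Whether the arms moved differently from month 0 to month 1 was tested as an interaction. No member passed in the raw counts, where 8.46% of 520 miRNAs did, or in the recovered reads, where 13% did. The raw counts gave 0.72 ± 0.31 for mmu-miR-181d-5p (adjusted p = 0.137), -0.44 ± 0.20 for mmu-miR-181c-5p (adjusted p = 0.159) and -1.02 ± 0.42 for mmu-miR-181a-2-3p (adjusted p = 0.119), which were the 3 members at an unadjusted p under 0.05. DESeq2 called none.

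In the last library of each CM mouse, from month 4 to month 10, the family was mostly lower than before induction. mmu-miR-181a-5p fell in all 7 mice in the deposited CPM. It went from 8676 to 1819 CPM in mouse 3334, from 8951 to 2833 in 3336, from 9690 to 2937 in 3338, from 10356 to 3038 in 3341, from 9668 to 8343 in 3357, from 7988 to 4643 in 3368 and from 8048 to 4946 in 3370. Only mouse 3357 was still within the range of month 0. The month 0 and last libraries of mouse 3334 lie on either side of the break in title numbers named above. The recovered reads gave -1.16 ± 0.25 (adjusted p = 0.00275, background 45%), a call that held without any 1 mouse. In the raw counts the value was -1.73 ± 0.63 (adjusted p = 0.041, background 39%). That call was kept only without mouse 3357 and was lost without any one of mice 3334, 3336, 3338, 3341, 3368 and 3370 (adjusted p of up to 0.132). In mouse 3357 the raw counts rose from 1221 to 5046 CPM while the deposited CPM fell.

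Both 3p members fell in all 7 mice. mmu-miR-181a-2-3p went from 16.3 to 21.7 CPM at month 0 to 0.619 to 10.9 in the last library, where it rested on 2 to 47 raw counts (-1.58 ± 0.42, adjusted p = 0.00936). mmu-miR-181a-1-3p went from 32.7 to 69.2 to 9.90 to 54 CPM (-1.24 ± 0.35, adjusted p = 0.0109), and pooled 3p in the recovered reads gave -1.32 ± 0.31 (adjusted p = 0.0041). mmu-miR-181b-5p fell in all 7 mice in the deposited CPM, though only from 610 to 593 CPM in mouse 3370. The recovered reads gave -0.83 ± 0.25 (adjusted p = 0.0142), a call lost without mouse 3334 (-0.61), 3336 (-0.75) or 3341 (-0.76). In the raw counts it was lower in 5 of 7 mice and was not called (-1.03 ± 0.51, adjusted p = 0.115). mmu-miR-181c-5p was lower in 6 of 7 mice. With all 7 mice it was called with the mouse as a block, that is in the paired comparison (-1.39 ± 0.40, adjusted p = 0.0254; recovered reads -1.36 ± 0.35, adjusted p = 0.0139), and not without it (-0.91 ± 0.45, adjusted p = 0.114). Without the block it was called when mouse 3368 was left out (-1.60, adjusted p = 0.0013; recovered reads -1.47, adjusted p = 0.00147).

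mmu-miR-181d-5p showed no common direction. In the deposited CPM it was lower in 4 mice (3334, 3336, 3338 and 3341) and higher in 3 (3357, 3368 and 3370, from 322 to 647, from 290 to 887 and from 298 to 437 CPM), with -0.38 ± 0.42 in the raw counts (adjusted p = 0.488).

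**Figure D5:**
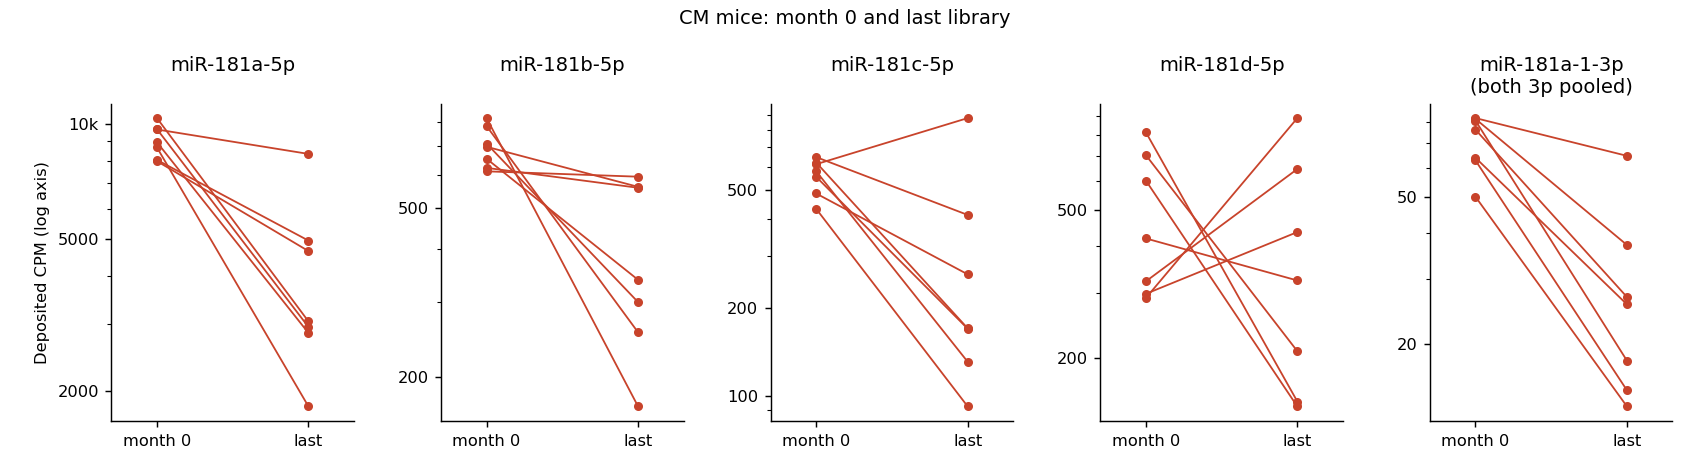
Deposited CPM (logarithmic axis) at month 0 and in the last library of the 7 CM mice, 1 line a mouse, for the 4 5p members and pooled 3p. mmu-miR-181a-5p, mmu-miR-181b-5p and pooled 3p fall in all 7 mice, whereas mmu-miR-181d-5p falls in 4 and rises in 3.

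In Ctrl mice, month 6 against month 0 gave a rise of mmu-miR-181c-5p (0.44 ± 0.15, adjusted p = 0.0459) and mmu-miR-181d-5p (0.68 ± 0.20, adjusted p = 0.0309) against a background of 20.5% (21.9% in the recovered reads, where the second alone was called). Neither was called in the paired comparison with the mouse as a block (0.40, adjusted p = 0.132, and 0.61, adjusted p = 0.118). Leaving out single mice, the first was lost without any one of mice 3335, 3339, 3340, 3346 and 3350 (adjusted p of up to 0.169) and the second without any one of 3335, 3339, 3340, 3346 and 3349 (adjusted p of up to 0.142). mmu-miR-181a-5p in Ctrl mice was at -0.35 ± 0.53 in the raw counts and -0.33 ± 0.17 in the recovered reads, not called. Samples were taken from the same animals, but age and time since the injections cannot be told apart.

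Summed CPM of marker miRNAs, from the raw counts, are set beside these results because PBMC are a mixture of cells. The 3 miRNAs of mature lymphocytes (miR-150-5p, miR-342-3p and miR-342-5p) summed to 23479 to 54230 CPM in CM mice at month 3 (median 47334), against 52395 to 91116 in Ctrl mice (median 64253), and in the last CM libraries to 9273 to 57527 (median 25193), against 29350 to 68787 (median 55016) at month 0 of these mice. In Ctrl mice their median was also lower at month 6 (32078) than at month 0 (55052). In CM mice the median of the myeloid list named next went from 9139 at month 0 to 4543 in the last libraries, and that of the erythroid list from 49620 to 32182. At month 3 the myeloid list (miR-223-3p, miR-223-5p, miR-511-3p) had medians of 8110 CPM in CM and 5040 in Ctrl, the erythroid list (miR-451a, miR-144-3p, miR-144-5p) 44447 and 38234, the progenitor list of 6 miRNAs (miR-99a-5p, miR-100-5p, miR-125b-5p, miR-130a-3p, miR-196b-5p, miR-10a-5p) 12190 and 13106, and the vessel wall list (miR-143-3p, miR-145a-5p) 253 and 362. The platelet list (miR-199a-5p, miR-199b-5p, miR-199a-3p) was near 0 at month 3, with medians of 2.86 and 1.91. At month 5 its maximum was 676 CPM in CM, where the median was 1.71, against 8.46 in Ctrl. In 1 CM library of month 1 the erythroid list reached 491558 CPM, against up to 59845 in Ctrl. At month 1 the lymphocyte list had medians of 41310 CPM in CM and 57764 in Ctrl, and at month 2 54321 and 60096. The myeloid medians were 5991 in CM and 6682 in Ctrl at month 1, and 10370.5 and 7376 at month 2. Those of the erythroid list were 46610 and 30382, and then 20973 and 16046. For all 3 lists the ranges of the arms overlapped at both months. The part of cell composition in the results was not tested.

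Of 12 other miRNAs of blood cell development and immune response, 3 (miR-150-5p, miR-223-3p and miR-125b-5p) also stand in the marker lists. In the main edgeR test of the raw counts up to 5 of the 12 were called. That was in the last CM libraries, where 39% of all miRNAs were called. The recovered reads of the last CM libraries gave 7, where 45% of all miRNAs were called. The values that follow are from the raw counts. At month 3, miR-150-5p (-0.70, adjusted p = 0.0222) and miR-146a-5p (-0.42, adjusted p = 0.0414), which is induced by NF-kB and dampens its signalling, were lower in CM, and miR-223-3p, a granulocyte miRNA, was higher (0.74, adjusted p = 0.0122). At month 2 miR-142a-3p, found throughout blood cells, was lower (-0.89, adjusted p = 0.00352). At month 1 and at months 4 to 6 none of the 12 was called in the main edgeR test of the raw counts. In the last CM libraries miR-17-5p (0.97, adjusted p = 0.0109), miR-20a-5p (1.01, adjusted p = 0.00499), both of the miR-17-92 cluster, and miR-21a-5p (0.53, adjusted p = 0.0241) were higher than at month 0, whereas miR-150-5p (-0.88, adjusted p = 0.0483) and miR-223-3p (-1.60, adjusted p = 0.00934) were lower. Averaged over months 1 to 4, miR-125b-5p was higher (1.10, adjusted p = 0.0121), without a call in the recovered reads, and miR-142a-3p (-0.71, adjusted p = 0.00318) and miR-150-5p (-0.64, adjusted p = 0.023) were lower in CM. In Ctrl mice at month 6 miR-29a-3p was higher (0.60, adjusted p = 0.0372) and miR-223-3p lower (-1.36, adjusted p = 3.44e-05) than at month 0.

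The other strands of the same precursors were low, apart from mmu-miR-181c-3p. mmu-miR-181c-3p had 64.1 ± 25.7 CPM over all training libraries of the raw counts, and mmu-miR-181d-3p 1.28 ± 0.93. Over months 1 to 4, mmu-miR-181d-3p was higher in CM (0.66 ± 0.16, adjusted p = 0.00741), as was its partner strand mmu-miR-181d-5p. The 3p strand rested on few reads, with mean raw counts of 7.86 in CM and 4.71 in Ctrl at month 1. At month 3 these means were 7.57 and 3.57. mmu-miR-181c-3p was not called in any comparison of the arms, but in Ctrl mice it was higher at month 6 than at month 0 (0.69 ± 0.20, adjusted p = 0.0245; with the mouse as a block 0.64, adjusted p = 0.0649), and in the last CM libraries it was lower in the paired comparison (-1.49 ± 0.50, adjusted p = 0.0437). The 3p strands of the miR-181b precursors carried exchanged levels in the tables. mmu-miR-181b-1-3p had a mean of 2.32 CPM from raw counts, but of 0.232 in the other table, and mmu-miR-181b-2-3p one of 0.599 and of 2.43. In the last CM libraries mmu-miR-181b-1-3p was lower in the raw counts (-0.90 ± 0.26, adjusted p = 0.0123) and mmu-miR-181b-2-3p in the recovered reads (-0.79 ± 0.24, adjusted p = 0.0172).

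Similarity of pattern was described by the Pearson r of log2 CPM over all training libraries, which come from 14 mice. mmu-miR-181d-5p was most like miR-99a-5p (r = 0.87), miR-330-3p (0.86) and miR-351-5p (0.79), and the r over residuals within arm and month were 0.83, 0.86 and 0.83. mmu-miR-181c-5p was most like miR-1843a-5p (0.76), miR-872-3p (0.75) and miR-1843a-3p (0.74). mmu-miR-181a-1-3p was most like miR-363-3p (0.78), miR-361-3p (0.69) and miR-29a-3p (0.68), and mmu-miR-181a-2-3p like miR-18b-5p (0.70), miR-363-3p (0.70) and miR-28a-3p (0.70). For mmu-miR-181a-5p the 5 highest in the raw counts were low (miR-139-5p 0.31, miR-467e-5p 0.29, miR-467d-5p 0.29, miR-200a-3p 0.26, miR-149-5p 0.26), whereas in the recovered reads they were miR-28a-3p (0.81), miR-28a-5p (0.80), miR-363-3p (0.75), miR-150-5p (0.75) and miR-3971 (0.74). mmu-miR-181b-5p likewise had at most 0.35 in the raw counts (miR-466f-3p, with miR-297b-3p at 0.34 and miR-106a-5p at 0.33) and 0.69 in the recovered reads (miR-23a-3p). miR-99a-5p stands in the progenitor list. The summed CPM of that list had medians of 9677 in CM and 10049 in Ctrl at month 1. At month 2 they were 13555 and 13008, and at month 3 12190 and 13106.

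In the validation cohort only the 12 libraries of point 5 (6 CM and 6 Ctrl mice) had 1645456 to 5445215 reads, and none of the 5 members tested there passed (limma-trend on log2(CPM + 1), 0% of 930 miRNAs called and 54 at an unadjusted p under 0.05, none of them a member). edgeR on the recovered reads called none of 478. CPM of this cohort were normalized apart from the training cohort and are not compared in level with it. mmu-miR-181a-5p had 48218 to 95303 CPM in CM mice (median 73469) and 59060 to 82119 in Ctrl mice (median 68693), with a log2 difference of 0.06 ± 0.26 (adjusted p = 0.982). mmu-miR-181c-5p was at -0.24 ± 0.29 and mmu-miR-181d-5p at -0.21 ± 0.27 (both adjusted p = 0.955). mmu-miR-181d-5p had 2711 to 3853 CPM in CM mice and 2124 to 4521 in Ctrl mice, so the arms overlapped. mmu-miR-181a-2-3p was listed at 0 in 11 of the 12 libraries. The log2 ratio of mmu-miR-181c-5p to mmu-miR-181d-5p was 0.70 ± 0.49 in CM and 0.72 ± 0.54 in Ctrl mice (difference -0.02, exact permutation test, p = 0.937), with ranges of 0.22 to 1.51 and 0.11 to 1.70. How these mice stood at other times was not detectable at this depth. The other 90 validation libraries had 1744 to 76906 reads, and mmu-miR-181a-5p had more than 3 reads in 6 of them, with at most 8, while mmu-miR-181b-5p, mmu-miR-181c-5p and mmu-miR-181d-5p had at most 3, 2 and 1 reads. mmu-miR-181a-2-3p had reads in 35 of these 90 libraries, with at most 4, whereas mmu-miR-181a-1-3p had 1 read in a single library and the training CPM listed mmu-miR-181a-2-3p near 0.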

How the data were processed

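MicroRNA sequencing data of PBMC were used as deposited. Per the study's methods, the authors trimmed adapters with cutadapt, aligned reads longer than 16 bases with Bowtie, and scaled counts by TMM in edgeR. The genome build of the alignment differs between sources (mm9, GRCm38). The deposited training raw counts are whole numbers, whereas the deposited CPM, in both cohorts, are TMM-scaled signal whose columns do not sum to a fixed total. Whole reads were recovered from them (added after the data were seen).

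Samples were grouped by their labels. Raw counts were compared with edgeR 4.0.16 (TMM, filterByExpr, quasi-likelihood test), mouse means and validation CPM with limma 3.58.1, and ratios (count + 0.5) with exact permutation tests (scipy 1.17.1). Adjusted p-values are Benjamini-Hochberg values over all miRNAs tested, with a threshold of 0.05. DESeq2 1.42.0 was an alternative. Each library is 1 mouse at 1 time. Within a month, and for mouse means and ratios, p-values measure the spread between mice. The fits of all training libraries took libraries of the same mouse as independent. So did the interaction and the tests against month 0, except with the mouse as a block. Same-numbered samples of different months come from the same mouse. Deviations of paired samples had median correlations of -0.05 to 0.02. No libraries of a group agreed within sampling noise.

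Members, lists and tests were chosen with earlier results of these data known. The members, the other strands of their precursors and 12 blood miRNAs are named throughout, with the 5 (miR-181a-5p) or 3 most similar miRNAs. Scripts were tested on simulated data. The spread between mice limits the precision.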

Additional observations from a re-analysis of the deposited data

Results flagged for a closer look

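Among 84 groups of an arm, a month and a member, 3 held a mouse far from the others of its group; chance alone flags about 1 in 20 groups. mmu-miR-181a-5p in CM mouse 3341 at month 5 was at 4993 deposited CPM, against 6174 to 6604 in the other CM mice. Pooled 3p (mmu-miR-181a-1-3p) in Ctrl mouse 3350 at month 1 was at 72.9 deposited CPM, against 49.7 to 59.4 in the other Ctrl mice. mmu-miR-181a-2-3p in Ctrl mouse 3349 at month 2 was at 7.17 CPM in the raw counts, against 15.9 to 22.1 in the other Ctrl mice. This value rested on 18 raw counts, in the training library with the fewest (1792809). It is this mouse that made the arms overlap at month 2, where CM mice had 8.18 to 14.6 CPM.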

How the results depend on the processing

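Of 1154 alternative values, 962 were rated as kept. For a fold change or ratio this means the same direction and the same side of the threshold. For a count of members called it means an equal or similar count, whichever members were called. The sign of mmu-miR-181a-5p reversed with the table: at month 2 the deposited CPM gave -0.42 (limma-trend) and the recovered reads -0.51, and at month 3 -0.51 and -0.43, against positive raw values, and the raw value of month 3 ran from -0.03 (without mouse 3370) to 1.21 without single mice. Its raw mouse mean difference, near 0, became 0.11 without mice 3334 and 3335, 0.07 with sex as a covariate, and -0.21 to 0.14 without single mice (0.01 without 3334, 0.05 without 3335, 0.14 without 3338 or 3342). The ratio of mmu-miR-181a-5p to both 3p members became -0.01, and that to mmu-miR-181b-5p -0.25, in the deposited CPM and in the recovered reads. For all of these the cause was not tested.

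Counts of members called moved as follows. At month 1 (2 called) 1 was called by DESeq2, with raw library sizes, without a filter, from the deposited CPM, without mice 3334 and 3335 and with the G number. The 1 called with the G number was lower in CM. The single fit of all libraries without it called 1 higher and 1 lower, the lower one not mmu-miR-181c-5p. In the recovered reads of month 1, 1 was called without mice 3334 and 3335 and in the fits of all libraries with and without the G number. At month 2 (1 called) 3 were called by DESeq2 and in the recovered reads and 0 with the G number, and in the recovered reads (3 called) 1 was called in both fits of all libraries. At month 3 the recovered reads (3 called) gave 1 with the G number. At month 4 the fits of all libraries on recovered reads gave 1. At month 5 leaving out mice 3334 and 3335 gave 1 in both tables. For Ctrl month 6 against month 0 (2 called), 0 were called with the replicate block, without a filter and without mice 3334 and 3335, and 1 by DESeq2, with raw library sizes and in the recovered reads, of which 0 remained with the replicate block and without both mice. The cause was not tested. In the pairing by mouse, the replicate block otherwise added mmu-miR-181c-5p to the 3 calls of the last CM libraries (4 called) in both tables, and changed no other call of a member. The groups of different mice allow no pairing. Calls over all miRNAs moved most at month 2 (65 in the raw counts, or 13.5% of those tested, against 22.2% in the recovered reads and, with no filter, 6.52% of 1596 by DESeq2), at month 4 (4, 22 by DESeq2 and 10 in the recovered reads), at month 5 (0, and 24 by DESeq2), in the interaction (44, and 67 in the recovered reads) and in the last CM libraries (174, and 267 by DESeq2).

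Leaving out single mice gave 1 to 2 calls at month 1 in both tables, 1 to 3 at month 2 in both tables, 0 to 2 for Ctrl month 6 against month 0 in both tables, 0 to 1 in the recovered reads of month 5 and of the interaction, and 0.35 to 0.63 for the log2 ratio of mmu-miR-181a-1-3p to mmu-miR-181a-2-3p. That ratio could not be formed in the deposited CPM, which pool the 3p members. The ratio of mmu-miR-181c-5p to mmu-miR-181d-5p stayed between -1.36 and -1.19. Raw library sizes shifted the median of all miRNAs in the last CM libraries from -0.06 to -0.25. Depth limits the validation cohort outside point 5.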
